A study of Mus musculus with 9 samples.

Results

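The border zone (BZ) of the reperfused mouse heart was compared with the remote non-ischemia zone (NIZ) sample by sample, as the difference of the BZ and the NIZ array that carry the same number in their labels. The difference of log2 levels was taken within numbers 1, 2 and 3, and a gene was kept when all 3 differences had the same sign and its mean level over the 9 arrays was 6 or more. Values come per transcript cluster, the set of probes that stands for a transcript. Where several clusters carried a symbol, the cluster with the highest mean level stood for it. Of 30087 genes with a cluster of their own, 12189 reached the level, and 4278 of these had the same sign in all 3 numbers. In BZ, 1698 genes (13.9% of the 12189) were higher and 2580 (21.2%) were lower, and 7911 had mixed signs. The sign was read from the same 6 arrays, so the values of these genes are a description, with no test.

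The arrays come from 3 male C57BL/6 mice aged 8 weeks, whose left anterior descending coronary artery was tied for 45 min and then reopened for 24 h. The left ventricle was divided into ischemia zone (IZ), BZ and NIZ, and each zone gave 3 samples of 100 ng total RNA, each on its own GeneChip Mouse Transcriptome Assay 1.0 array. All 3 zones come from operated hearts, so NIZ is a remote region and not an unoperated heart. The labels number the samples of a zone from 1 to 3 but tie no number to a mouse, so the spread between samples may be partly technical. They name heart as the source beside a tag that reads brain. On the 6 BZ and NIZ arrays the 28 cardiomyocyte genes had a mean log2 level between 11.14 and 11.51, while 0 of 9 measured nerve and glia genes and 3 of 14 brain genes (Slc17a7, Camk2a and Stmn2) reached a level of 6.

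When a blocked coronary artery is reopened, muscle at the edge of the injured area survives beside inflamed tissue, and the remote wall keeps its blood supply. Neutrophils enter within hours and are followed by monocytes that become macrophages, which take up dead cells and show antigens on major histocompatibility complex (MHC) proteins. Heart muscle burns mainly fatty acids in its mitochondria, and muscle near an infarct is known to lose fatty acid enzymes and to bring back genes of the fetal heart. In whole tissue, fewer cells of a type and less RNA per cell cannot be told apart.

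The numbers differed among themselves in ways the zones do not account for. The 13 neutrophil genes at a level of 6 or more had a mean level of 9.47, 7.99 and 6.25 in BZ 1, 2 and 3 and of 9.15, 7.96 and 5.90 in NIZ. In IZ the same genes had 7.78, 7.75 and 8.36. The IZ array thus lay below the BZ and NIZ arrays of its number in numbers 1 and 2 and above them in number 3. The NIZ array of number 2 stood apart for atrial genes, with a mean level of 9.44 against 7.61 and 7.75 in NIZ 1 and 3. Its level of Myl7 and Sln, which encode the atrial myosin light chain and a regulator of the calcium pump, exceeded that of BZ 2, with BZ minus NIZ at -2.08 and -2.13 log2. Mesothelial genes, which mark the outer lining of the heart, differed by 0.06, 0.43 and -0.62 (median over 7 genes) in numbers 1, 2 and 3. The part of these differences in the results below was not tested.

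Most differences were small against the spread between arrays. The median mean difference was 0.14 log2 among the higher and -0.15 log2 among the lower genes. It exceeded 0.5 log2 in size in 72 higher and 64 lower genes, and 1 log2 in 3 higher (Ms4a4c, Sprr1a and Ccl11) and 0 lower genes. In 1299 (76.5%) of the higher and 2014 (78.1%) of the lower genes the range over the 3 NIZ arrays was larger than the mean difference. All 3 BZ arrays lay above all 3 NIZ arrays in 269 genes (2.21% of the 12189) and below them in 465 (3.81%), so the zones overlapped in 3544 of the 4278 genes.

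No cluster was called by limma, which called 0 of 65534 clusters (0.0%) at an adjusted p of 0.05, with a smallest adjusted p of 0.854. At an unadjusted p under 0.05 it had 1433 clusters higher (2.19%) and 2024 lower (3.09%) in BZ. With the replicate number as a block, 0 clusters were called, the smallest adjusted p was 0.669, and 2057 clusters were higher (3.14%) and 2678 lower (4.09%) at an unadjusted p under 0.05. Leaving out NIZ 3 alone gave 173 calls, 29 higher and 144 lower, and leaving out number 3 in every zone gave 65, or 0 with the block.

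The 3 numbers did not show the same differences to the same extent. Across the 12189 genes, the difference of number 1 correlated with that of number 2 at a Pearson r of 0.60, while number 3 correlated at 0.22 with number 1 and at 0.13 with number 2. These are correlations across genes, which are not independent replicates, and the pairs of arrays compared share no array. The SD of the differences over genes was 0.25 log2 in number 1, 0.19 in number 2 and 0.189 in number 3. The median difference of all genes was -0.031 in number 3 and 0 in the others, and 49.5%, 46.4% and 36.7% of genes were higher in BZ in numbers 1, 2 and 3. Over all 30087 genes, with no level required, the order of these shares was the reverse, with 38.5%, 41.8% and 51.5%. The shares hold only differences above 0, so the remaining genes include ties at exactly 0 and were not all lower. The largest of the 3 differences came from number 1 in 946 of the 1698 higher genes, and the smallest from number 3 in 829.

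**Figure D1:**
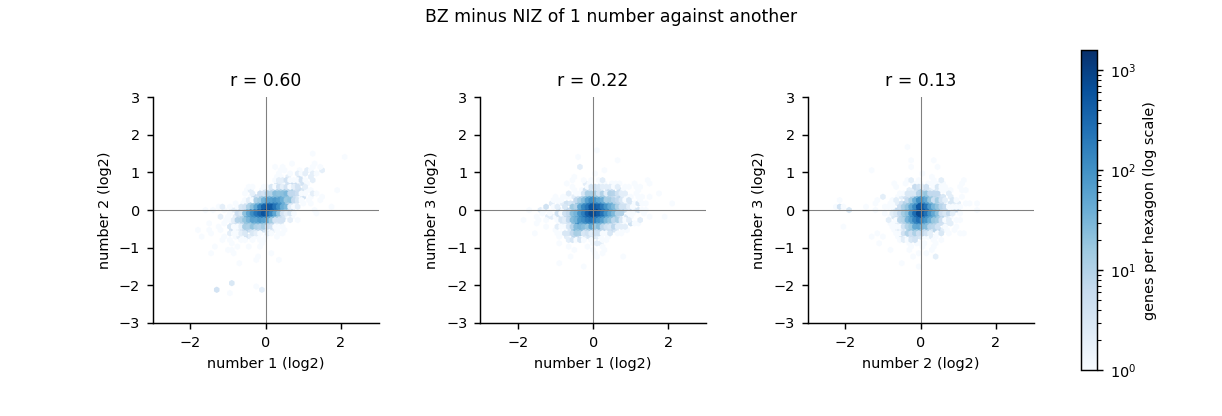
BZ minus NIZ (log2) of 1 number against another for the 12189 genes with a mean level of 6 or more, with each hexagon coloured by how many genes it holds on a log scale and r the Pearson correlation. Genes spread along the diagonal for numbers 1 and 2 (0.60) and form a round cloud for number 3 against number 1 (0.22) and number 2 (0.13).

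Requiring only the same sign in numbers 1 and 2 gave 3951 higher and 3607 lower genes, so the excess of lower genes depended on number 3. The excess also turned with quantile normalization of the deposited values, which gave 2809 higher and 2164 lower genes, so that lower genes were 43.5% of the total in place of 60.3%. Among the protein-coding genes of the RefSeq table, 1396 were higher and 1635 lower.

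In the higher genes, limma gave an unadjusted p under 0.05 for 218, and for 437 of the lower genes, a description since the same contrast chose them. Of the higher genes, 8 differed by over 0.5 log2 in each number. They were Sprr1a, Ccl11, Cfb, Gm12250, Cfp, Cxcl9, Epsti1 and Cd52. The NIZ means of Sprr1a and Epsti1 were 5.98 and 5.84, so both reached the level only through the zones where they were higher. Sprr1a, a small proline-rich protein known from stressed heart muscle, had levels of 8.54, 6.72 and 6.12 in BZ 1, 2 and 3 and of 7.08, 5.57 and 5.31 in NIZ. Each BZ array was above its own partner, but BZ 2 and BZ 3 were below NIZ 1, so the zones overlapped. The mean difference was 1.14 ± 0.32 log2 (SD, n = 3), or 2.21-fold. Ms4a4c, a membrane protein of the Ms4a family, had the largest mean difference, 1.24 ± 0.99 log2, which came from 2.10 in number 1 and 1.45 in number 2 against 0.16 in number 3.

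**Figure D2:**
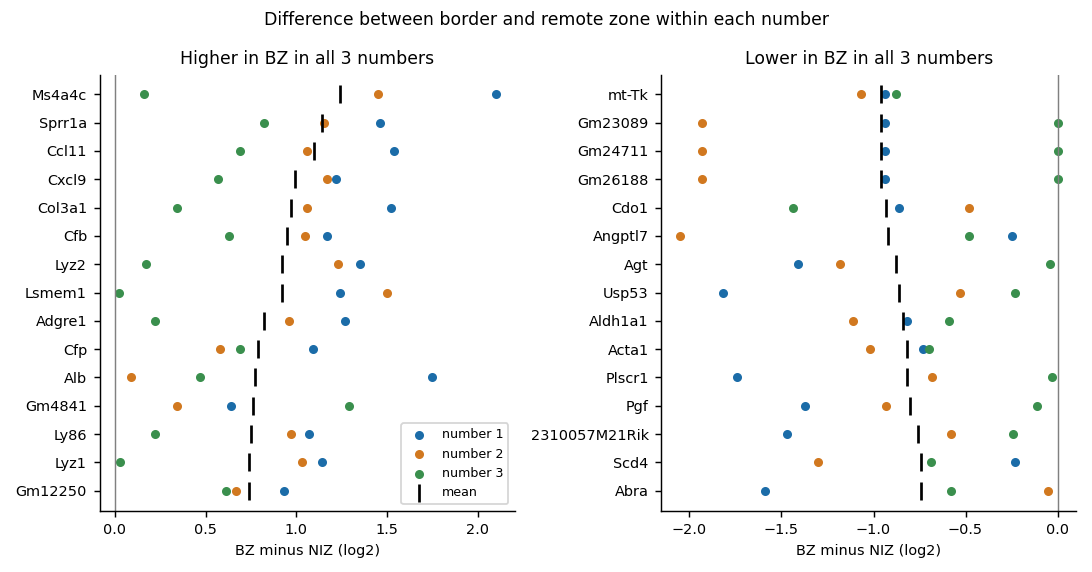
BZ minus NIZ (log2) within each number (coloured points) and its mean (black bar) for the 15 genes with the largest and the 15 with the smallest mean difference among the 4278. Number 3 is the point nearest 0 for most of the higher genes, as for Lyz2 (0.17 against 1.35 and 1.23), while mt-Tk and Acta1 are even over the 3 numbers.

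Genes of antigen presentation on MHC class I were higher in BZ, and this list had the highest share of genes whose zones did not overlap. Of 10 measured at a level of 6 or more, 9 were higher in all 3 numbers and 0 lower, and in all 9 every BZ array lay above every NIZ array. Over all genes 13.9% were higher, 21.2% were lower, and 2.21% had every BZ array above every NIZ array. These shares also stand beside the list counts below. The median difference over the 10 genes was 0.29 log2, against 0 over all genes. H2-K1, a class I heavy chain that holds the peptide at the cell surface, was at 10.17, 10.09 and 9.96 in BZ and at 9.81, 9.66 and 9.52 in NIZ. Its differences of 0.36, 0.42 and 0.44 were nearly equal (0.41 ± 0.04 log2, 1.33-fold), and in IZ it stood at 10.09, 10.08 and 9.53. H2-D1, a further class I chain, differed by 0.35 ± 0.06 log2. Psmb8, a subunit of the immunoproteasome that cuts proteins into peptides for class I, had levels of 7.34, 7.12 and 7.06 in BZ and of 6.80, 6.66 and 6.77 in NIZ (0.43 ± 0.13 log2). Tap1, which carries the peptides into the endoplasmic reticulum, differed by 0.48, 0.46 and 0.03, and Tapbp, which loads them, by 0.28, 0.20 and less than 0.01. Psme1, an activator of the proteasome, was the exception, with differences of -0.04, 0.13 and 0.31. With median centring of the arrays, 7 of the 10 stayed higher in all 3 numbers, and 6 had zones apart.

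MHC class II genes, which professional antigen-presenting cells carry, were also higher. Of 9 measured, 6 reached a level of 6 or more, and these 6 were higher in the 3 numbers (median 0.43 log2), 2 with zones apart. H2-Aa and H2-DMb1 had NIZ means of 5.92 and 5.94, so they reached the level only through the zones where they were higher. The count is therefore no support for the list. Over all 9 the mean level was 6.24, 6.25 and 6.53 in BZ and 6.01, 5.86 and 6.23 in NIZ. H2-Ab1 was at 8.89, 8.92 and 9.48 in BZ and at 8.64, 8.18 and 8.92 in NIZ, a mean difference of 0.51 ± 0.25 log2, and H2-Eb1 differed by 0.52 ± 0.25 log2. H2-DMb1, a chain of the protein that loads peptides on class II, lay at 6.50, 6.49 and 6.58 against 5.89, 5.62 and 6.30, with no overlap. In BZ and in NIZ both H2-Ab1 and H2-Eb1 were highest in number 3, but in IZ they were highest in number 2, at 9.13 and 7.63.

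Macrophage genes made up the largest group of higher genes among the lists. Of 28 such markers at a level of 6 or more, 18 were higher in all 3 numbers and 0 were lower, and 5 of them had zones apart. The median difference was 0.35 log2 and came to 0.47, 0.46 and 0.16 in numbers 1, 2 and 3. Without number 3, 21 of the 28 were higher, beside 32.4% of all genes, and 11 had zones apart. With only 2 arrays per zone the zones part more easily, and the share over all genes was not counted. This holds for the lists below as well. Lyz2, a lysozyme that myeloid cells secrete, had levels of 11.88, 11.60 and 11.14 in BZ, 10.53, 10.37 and 10.98 in NIZ and 11.86, 11.67 and 11.46 in IZ. The differences of 1.35, 1.23 and 0.17 gave a mean of 0.92 ± 0.65 log2 (1.89-fold), and the lowest BZ array stood above the highest NIZ array. Adgre1, which encodes the macrophage surface protein F4/80, differed by 1.27, 0.96 and 0.22, and Folr2, a folate receptor of resident macrophages, by 0.68, 1.26 and 0.15. The chains of C1q, which macrophages make and which starts the classical complement pathway, differed by 0.46 (C1qa), 0.63 (C1qb) and 0.36 (C1qc) on average. Not every macrophage gene followed. Arg1, an enzyme of wound macrophages, differed by 0.31, -1.31 and 1.07, and Cd14, a receptor for bacterial lipid, by 0.23, -0.33 and -0.49.

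**Figure D3:**
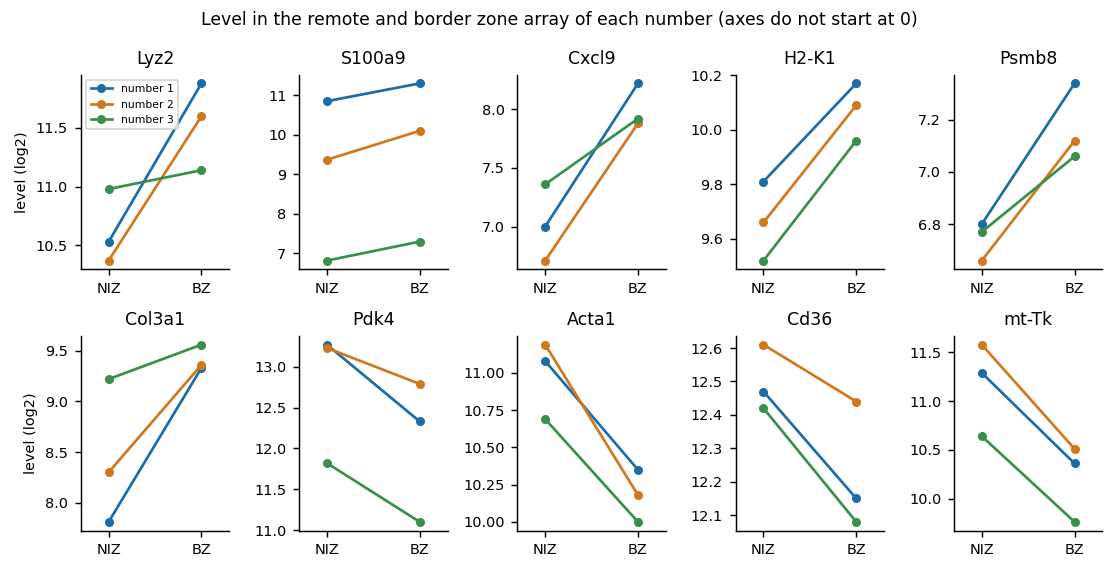
Log2 level of 10 genes on the NIZ and the BZ array of each number, joined by a line per number. For S100a9 the 3 lines run nearly parallel at very different levels, for Lyz2 the line of number 3 is nearly flat (10.98 to 11.14), and for Acta1 and mt-Tk all 3 BZ points lie below all 3 NIZ points.

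Complement genes outside C1q followed the macrophage genes in part. Of 10 genes, 4 were higher in all 3 numbers and 0 lower, beside 13.9% and 21.2% of all genes. Cfb, factor B of the alternative pathway, was at 7.63, 7.58 and 7.07 in BZ and at 6.46, 6.53 and 6.45 in NIZ. The zones did not overlap, and the mean difference was 0.95 ± 0.29 log2, or 1.93-fold. Cfp, properdin, which stabilises the enzyme that factor B forms, differed by 1.09, 0.58 and 0.69. C4b, a component of the classical pathway, and C3ar1, a receptor for a complement fragment, had mean differences of 0.52 and 0.47 log2.

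Chemokines divided by gene. Of 21 cytokine and chemokine genes, 10 were higher in all 3 numbers and 1, Cxcl12 (-0.08, -0.08 and -0.00), was lower. Ccl11, or eotaxin, which attracts eosinophils, stood at 7.69, 7.15 and 6.63 in BZ and at 6.15, 6.09 and 5.94 in NIZ, a difference of 1.10 ± 0.42 log2 (2.14-fold) with zones apart. In IZ it was at 6.30, 6.28 and 7.43. Cxcl9, an interferon-gamma-induced attractant of T cells, was at 8.22, 7.88 and 7.92 in BZ against 7.0, 6.71 and 7.36 in NIZ, while IZ had 9.44, 9.16 and 7.01. Both genes had BZ and NIZ apart, and in each the IZ array of number 3 stood away from the other IZ arrays. Ccl3, which attracts monocytes and neutrophils, had mixed signs, with -0.93, -2.22 and 0.06. Ccl5 also did, with -0.38, -0.26 and 1.36.

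Neutrophil genes differed less between BZ and NIZ than between the numbers. Of 13 genes, 6 were higher in all 3 numbers, 1 was lower, and 0 had zones apart. The median difference was 0.45, 0.01 and 0.41 in numbers 1, 2 and 3. S100a9, a chain of calprotectin, had levels of 11.30, 10.10 and 7.30 in BZ and of 10.85, 9.37 and 6.82 in NIZ. The differences were 0.45, 0.73 and 0.48 (0.55 ± 0.15 log2), so each BZ array was above its partner, while BZ 3 was below NIZ 1 and NIZ 2. Its partner S100a8 differed by 0.46, 0.55 and 0.72, and the collagenase gene Mmp8 by 0.78, 0.41 and 0.52 while BZ went from 10.02 in number 1 to 4.77 in number 3. Lcn2, which neutrophils and stressed epithelia secrete to withhold iron, was lower, with -0.37, -0.49 and -0.04. Selp, the endothelial selectin that slows leukocytes, behaved like the S100 genes, with differences of 0.41, 0.47 and 0.59 at BZ levels of 8.47, 8.19 and 6.62.

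Interferon-induced genes split the numbers. Only 4 of 22 were higher in all 3 numbers (Igtp, Usp18, Lgals3bp and Ifit3) and 1, Ifit1, was lower, beside 13.9% and 21.2% of all genes. In numbers 1 and 2 alone, 21 of the 22 were higher, beside 32.4% of all genes, and 17 had zones apart over 2 arrays per zone. The median differences were 0.43, 0.37 and -0.23 in numbers 1, 2 and 3. Oas2, a sensor of double-stranded RNA, differed by 0.70, 0.74 and -0.63, and Rsad2, the antiviral protein viperin, by 0.25, 0.27 and -1.06. Igtp, an interferon-gamma-induced GTPase, differed by 0.48, 0.40 and 0.48 with zones apart. Usp18, which removes the interferon-induced tag ISG15 from proteins, differed by 0.41, 0.34 and 0.48. Among 11 guanylate-binding and immunity-related GTPases, a family counted after its values were seen, Igtp was the only one higher in all 3 numbers, and the family medians were 0.39, 0.41 and -0.25. Gm12250 and Epsti1, both known to respond to interferon, were higher with zones apart, by 0.74 ± 0.17 and 0.58 ± 0.08 log2.

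The sequences upstream of genes that took different courses are shown for the interferon-stimulated response element (ISRE), searched on both strands as GAAANNGAA. The 250 bases before the transcription start are printed 5′ to 3′ on the gene's strand, from RefSeq on build GRCm38.p6, with matches in capitals. Of the named interferon-induced genes 3 have a promoter in the table, and 2 of these hold the letters, as do 2 of 3 named macrophage genes. A gene counts when any of its promoters holds them. Folr2, 1 of these macrophage genes, also has a promoter without them. These letters occur in 8.56% of all 32851 promoters of 300 bases, which run from 250 before the start to 50 after it. A promoter of 8.4% of the genes at a level of 6 or more holds them. The matches stand before genes that were higher (Igtp and Ms4a6c) and before Ifit1, whose mean difference was -0.21 log2.
Igtp, chr11:58199306-58199555, plus strand: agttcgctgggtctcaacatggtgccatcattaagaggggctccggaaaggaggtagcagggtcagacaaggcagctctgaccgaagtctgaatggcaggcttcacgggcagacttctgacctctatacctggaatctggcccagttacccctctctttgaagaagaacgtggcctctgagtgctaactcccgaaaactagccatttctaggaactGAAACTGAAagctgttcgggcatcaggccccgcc
Ms4a6c, chr19:11469118-11469367, plus strand: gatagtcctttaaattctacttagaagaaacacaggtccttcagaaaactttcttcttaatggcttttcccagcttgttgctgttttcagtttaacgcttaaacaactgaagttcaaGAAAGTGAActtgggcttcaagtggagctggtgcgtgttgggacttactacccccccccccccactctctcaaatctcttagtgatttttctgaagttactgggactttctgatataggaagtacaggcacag
Ifit1, chr19:34640639-34640888, plus strand: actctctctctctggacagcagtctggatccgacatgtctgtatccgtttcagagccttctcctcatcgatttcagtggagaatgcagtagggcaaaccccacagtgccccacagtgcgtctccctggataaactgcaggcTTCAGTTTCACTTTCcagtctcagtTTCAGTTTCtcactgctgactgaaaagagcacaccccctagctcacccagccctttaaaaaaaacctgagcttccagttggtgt

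Most fibroblast genes had mixed signs. Of 15 fibroblast markers 3 were higher and 2 lower in all 3 numbers, and the higher ones were Col3a1, Col1a1 and Col1a2, the chains of fibrillar collagen, each with zones apart. Col3a1 was at 9.33, 9.36 and 9.56 in BZ and at 7.81, 8.30 and 9.22 in NIZ, with differences of 1.52, 1.06 and 0.34 (0.97 ± 0.59 log2, 1.96-fold). Col1a1 differed by 0.52 ± 0.29 and Col1a2 by 0.42 ± 0.42 log2. Of 25 collagen chain genes, a family counted after its values were seen, 10 were higher and 2 lower, with a median of 0.07 log2. Dcn and Gsn, which encode decorin and gelsolin, were lower in all 3 numbers, Dcn by -0.33, -0.03 and -0.42. Of 24 genes of the extracellular matrix and early scar, 7 were higher and 7 lower. Timp1, an inhibitor of matrix proteases, was higher by 0.63 ± 0.18 log2, while Lox, which cross-links collagen, was lower by -0.54, -0.68 and -0.07, and Ccn1, a matrix-bound signal protein, by -0.95, -0.12 and -0.15.

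Chaperones of the endoplasmic reticulum were higher in numbers 1 and 2, with little difference in number 3. Of 16 genes of the endoplasmic reticulum stress response, 6 were higher and 1 (Atf4) lower in all 3 numbers, and the median was 0.51, 0.47 and -0.02 in numbers 1, 2 and 3. Without number 3, 13 of 16 were higher, beside 32.4% of all genes, and 10 had zones apart over 2 arrays per zone. Calr, the calcium-binding chaperone calreticulin, was at 10.35, 10.11 and 10.13 in BZ and at 9.72, 9.61 and 9.98 in NIZ (0.43 ± 0.25 log2). Sdf2l1, a partner of the chaperone BiP, differed by 0.61, 0.97 and 0.03. Hspa5, which encodes BiP itself, differed by 0.50, 0.45 and -0.07 and so was not among the 6. The Hspa5 level of NIZ 3, 10.56, lay near those of the BZ arrays (10.61, 10.53 and 10.49), and NIZ 1 and 2 were at 10.11 and 10.08.

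Few proliferation genes reached the level. Of 20 measured, 6 reached a level of 6 over the 9 arrays, and 5 of these, all replication genes, were higher in all 3 numbers. The medians over the 6 were 0.72, 0.09 and 0.21 in numbers 1, 2 and 3. Over all 20 the mean level was 5.63, 5.25 and 5.45 in BZ and 5.30, 5.24 and 5.18 in NIZ, so number 2 showed almost no difference. A gene that reaches the level only where it is high had to differ, so the count supports nothing about the list. Mcm5, a subunit of the helicase that opens DNA for replication, was at 6.90, 6.05 and 6.07 in BZ and at 5.96, 5.78 and 5.84 in NIZ, with zones apart and differences of 0.93, 0.28 and 0.23. Mcm2 differed by 0.71, 0.13 and 0.19, and Mcm3, the exception, by 0.73, -0.01 and 0.45. Genes of mitosis such as Mki67 were below the level of 6. Nkg7, a granule protein of killer lymphocytes, was 1 of only 2 lymphocyte genes that reached the level, and it differed by 0.25, 0.33 and 0.80 with zones apart. Its mean was 5.84 in NIZ, 6.30 in BZ and 6.38 in IZ, so Nkg7 too reached the level only through the zones where it was higher.

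Of 18 genes of glucose breakdown, 8 were higher in all 3 numbers and 2 lower, beside 13.9% and 21.2% of all genes. The other 8 had mixed signs. The median was 0.06 log2 and came to 0.09, 0.01 and 0.09 in numbers 1, 2 and 3. Slc16a3, a lactate exporter, had the largest mean difference at 0.40 ± 0.19 log2. Hk2, which phosphorylates glucose, differed by 0.51, 0.04 and 0.08. Egln3, an oxygen-sensing hydroxylase that hypoxia induces, stood out of 15 hypoxia genes, of which 3 were higher and 3 lower. It was at 9.30, 8.90 and 9.34 in BZ and at 8.66, 8.47 and 8.76 in NIZ, so that the zones were apart (0.54 ± 0.11 log2), and at 8.59, 8.76 and 8.68 in IZ. Adm, a vasodilator peptide that hypoxia also induces, was lower by -0.40, -0.17 and -0.36.

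Ion channel genes were higher more often than lower. Of 19 genes 7 were higher and 2 lower in all 3 numbers, beside 13.9% and 21.2% of all genes. In 1 the zones were apart, and the median was 0.11 log2. Kcnq1, a potassium channel of repolarisation, differed by 0.74, 0.38 and 0.24, and Slc8a1, the sodium-calcium exchanger, by 0.21, 0.03 and 0.38 with zones apart. Gja1 and Gja5, which form gap junctions between heart cells, differed by 0.17 and 0.11 log2 on average. Kcnip2, a partner of the transient outward potassium channel, was lower, at -0.92, -0.01 and -0.19. Kcnj5, a channel of the atria and pacemaker, had 1.04, 0.53 and -0.03 and was not among the 7.

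**Figure D4:**
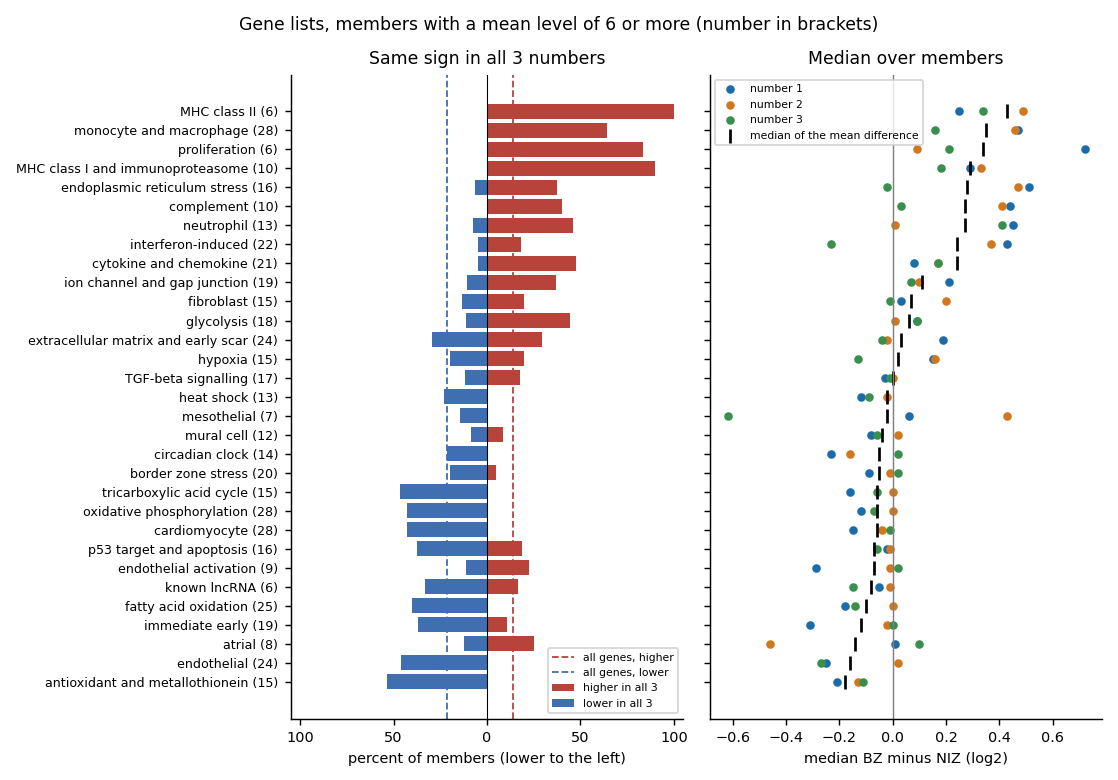
For each list with 6 or more members at a mean level of 6 or more, the left panel shows the percent of members higher (red) or lower (blue) in BZ in all 3 numbers, with dashed lines at the share of all genes (13.9% and 21.2%), and the right panel shows the median BZ minus NIZ (log2) of each number. MHC class II, proliferation and MHC class I genes extend farthest to the right, while interferon-induced genes show numbers 1 and 2 at 0.43 and 0.37 and number 3 at -0.23.

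In the muscle and mitochondrial lists more genes were lower than higher in BZ, by small amounts. Of 28 cardiomyocyte genes 12 were lower in all 3 numbers, 0 were higher and 0 had zones apart, with a median of -0.06 log2. Hrc, a calcium-binding protein of the sarcoplasmic reticulum, differed by -0.56, -0.21 and -0.21, and Atp2a2, the calcium pump SERCA2, by -0.28, -0.05 and -0.19 at levels of 12.80, 13.20 and 13.17 in BZ. With quantile normalization 4 of the 28 were lower and 2 higher, so that count depends on the scaling. Acta1, which encodes skeletal alpha-actin, a gene of the fetal heart, was lower by more. It stood at 10.35, 10.18 and 9.996 in BZ and at 11.08, 11.19 and 10.69 in NIZ, with zones apart and a difference of -0.82 ± 0.18 log2 (1.76-fold lower), and at 11.23, 10.99 and 10.71 in IZ. Other genes known from border zone muscle had mixed signs. Of 20, 4 were lower (Acta1, Xirp1, Enah and Uck2) and 1 (Actn1) was higher. Nppa, the atrial peptide gene, differed by 0.43, -0.62 and 0.01 and Ankrd1, a stretch-responsive gene, by -0.09, 0.00 and -0.19.

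In the deposited values, fatty acid genes were lower more often than the background. Of 25 genes 10 were lower and 0 higher in all 3 numbers (median -0.10 log2), and 0 had zones apart. Pdk4, the kinase that shuts off pyruvate oxidation when fat is burned, was at 12.33, 12.79 and 11.10 in BZ and at 13.27, 13.23 and 11.82 in NIZ. The mean difference was -0.70 ± 0.25 log2 (1.63-fold lower), and the zones overlapped because number 3 was low in both. Ucp3, a mitochondrial carrier, differed by -0.80, -0.55 and -0.33, and Cd36, the fatty acid uptake protein, by -0.32, -0.18 and -0.34. Cpt1b, the gate for fatty acids into the mitochondrion, did not take part, with -0.04, 0.16 and -0.09. Of 28 oxidative phosphorylation genes 12 were lower and of 15 tricarboxylic acid cycle genes 7, with 0 higher in either group and medians of -0.06 log2. Number 2 gave a median of about 0 in the fatty acid, oxidative phosphorylation and tricarboxylic acid cycle lists. Without it 21, 21 and 10 genes were lower, beside 30.1% of all genes. With quantile normalization 6, 9 and 3 were lower in all 3 numbers and 2, 0 and 3 higher. In that setting 17.8% of all genes were lower and 23.1% higher, so the fatty acid and tricarboxylic acid cycle counts depend on the scaling.

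Genes on the mitochondrial chromosome were lower in BZ by small amounts. The 6 genes that the RefSeq table places there and that reached the level, chosen after their values were seen, were all lower, each with zones apart. Over all genes 21.2% were lower and 3.81% had every BZ array below every NIZ array. The 6 were COX1, COX2, ND2, ND3 and ND6, subunits of the respiratory chain, and mt-Rnr1, the small ribosomal RNA of mitochondria. COX2 differed by -0.01, -0.15 and -0.26, ND2 by -0.09, -0.22 and -0.39, and mt-Rnr1 by -0.13, -0.13 and -0.22 at levels from 13.50 to 13.63 in BZ. The mitochondrial lysine tRNA gene mt-Tk, which the table lists under no such symbol, had a mean difference of -0.96 ± 0.10 log2, the lowest value, which 3 snoRNA genes share at this rounding. Its levels were 10.36, 10.51 and 9.76 in BZ, 11.29, 11.58 and 10.64 in NIZ and 10.80, 10.54 and 11.14 in IZ, so the zones did not overlap.

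The median endothelial gene was lower in numbers 1 and 3 and near 0 in number 2. Of 24 genes 11 were lower in all 3 numbers, 3 of them with zones apart, and 0 were higher. The medians were -0.25, 0.02 and -0.27. Without number 2 there were 19 lower genes, beside 30.1% of all genes, and 10 had zones apart over 2 arrays per zone. Sox18, a transcription factor of vessel endothelium, was at 8.25, 8.20 and 8.22 in BZ and at 8.75, 8.64 and 8.43 in NIZ. Fabp4, a fatty acid carrier of capillaries and fat cells, was lower by -0.78, -0.36 and -0.32, and Gpihbp1, which holds lipoprotein lipase on capillaries, by -0.64, -0.36 and -0.15. Pecam1, the junction protein CD31, had -0.36, -0.13 and -0.35. Vwf and Plvap ran the other way in numbers 2 and 3, with 0.23 and 0.10 for Vwf and 0.28 and 0.25 for Plvap. Of 5 fat cell genes 2 were lower, and these were Plin4, a coat protein of lipid droplets (-0.48, -0.44 and -0.66), and Pparg, the regulator of fat cell genes (-0.72, -0.28 and -0.39).

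Antioxidant genes had the lowest list median, -0.18 log2. Of 15, 8 were lower in all 3 numbers and 0 higher. They included Gclc, the limiting enzyme of glutathione synthesis (-0.69, -0.56 and -0.24), and Srxn1 and Txnrd1, which reduce oxidised proteins, with means of -0.40 and -0.39 log2. Nqo1, a quinone reductase, was at 8.23, 8.88 and 8.48 in BZ and at 8.54, 9.15 and 8.95 in NIZ. Within every number BZ was the lower array, but BZ 2 was above NIZ 1. The metallothioneins Mt1 and Mt2 differed by -0.23, -0.19 and -0.33 and by -0.18, -0.22 and -0.36. Hmox1, which breaks down heme, did not follow, with -0.44, -1.0 and 0.33. Aldh1a1, which makes retinoic acid, and Fmo2, a drug-oxidising enzyme, were among the 8 lower genes that differed by over 0.5 log2 in every number, by -0.84 ± 0.26 and -0.72 ± 0.18 log2.

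Several of the largest negative means came mainly from 1 or 2 numbers, while Acta1, Aldh1a1 and mt-Tk were among the most even lower genes. Angptl7, a secreted angiopoietin-like protein, differed by -0.25, -2.05 and -0.48, with NIZ 2 at 8.92 against 5.79 and 5.67 in NIZ 1 and 3. That array also had the high atrial genes. The snoRNA genes Gm23089, Gm24711 and Gm26188 share all 9 values and differed by -0.94 and -1.93 in numbers 1 and 2, with BZ and NIZ both at 5.79 in number 3. Usp53 and Plscr1, the latter a scramblase that moves membrane lipids, had -1.82 and -1.74 in number 1 and -0.23 and -0.03 in number 3. Agt, the precursor of angiotensin, was at 6.17, 6.16 and 6.05 in BZ and at 7.59, 7.34 and 6.10 in NIZ, so its level in BZ was even and that of NIZ was not. Agtr1a, its receptor, was higher by 0.12 ± 0.02 log2.

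Immediate early genes, which cells switch on within minutes of a stimulus, were lower at 24 h more often than higher. Of 19 genes 7 were lower in all 3 numbers and 2, Fos and Socs3, higher, beside 21.2% and 13.9% of all genes. The median was -0.12 log2, with -0.31, -0.02 and 0.00 in numbers 1, 2 and 3. Klf4, a zinc-finger factor, differed by -0.34, -0.21 and -0.25, Klf6 by -0.66, -0.10 and -0.18 and Klf2, which blood flow induces in endothelium, by -0.26, -0.03 and -0.52. Fos was higher by 0.11, 0.11 and 0.12. Among 13 heat shock genes 3 were lower and 0 higher, and the lower count is close to the 21.2% of all genes. Hspb8 and Bag3, a chaperone pair of muscle, were among the 3. Hspb8 was at 10.78, 10.84 and 10.66 in BZ against 11.30, 11.06 and 11.05 in NIZ, with zones apart.

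Of 14 clock genes 3 were lower, Cry1, Per1 and Tef, and 0 were higher, and the lower count is close to the 21.2% of all genes. Cry1 and Per1 encode repressors of the clock, and Tef a factor of its output. Cry1 was at 6.90, 6.58 and 6.07 in BZ and at 7.14, 6.89 and 6.46 in NIZ, with differences of -0.25, -0.31 and -0.39. Several other clock genes took the opposite sign in number 3, chosen after their values were seen. Arntl and Npas2, which drive the clock, differed by 0.20, 0.51 and -0.77 and by 0.57, 0.83 and -0.09, while Dbp, an output gene with the reverse phase, differed by -0.29, -0.31 and 0.77. The upstream sequences of the 3 lower genes are shown because all 3 hold the E-box, CACGTG, at which clock factors bind, in at least 1 promoter. Per1 has another promoter, not printed, with 0 matches to any motif searched, and Tef has another that also holds the E-box. The E-box occurs in 7.15% of all promoters, and 12.0% of the 7858 genes at a level of 6 or more that have a promoter hold it. The E-box is in capitals, and in Per1 so are the letters TTATGCAA, which match both the D-box pattern TTATGNAA (3.38% of promoters, 2.37% of those genes) and, on the other strand, the CEBP pattern TTGCNNAA (10.8% and 9.77%).
Cry1, chr10:85185055-85185304, minus strand: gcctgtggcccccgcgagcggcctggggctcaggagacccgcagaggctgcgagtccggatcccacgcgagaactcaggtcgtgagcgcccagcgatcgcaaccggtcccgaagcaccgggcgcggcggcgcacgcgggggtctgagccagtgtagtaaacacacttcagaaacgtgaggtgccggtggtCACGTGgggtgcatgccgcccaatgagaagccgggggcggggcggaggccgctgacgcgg
Per1, chr11:69098699-69098948, plus strand: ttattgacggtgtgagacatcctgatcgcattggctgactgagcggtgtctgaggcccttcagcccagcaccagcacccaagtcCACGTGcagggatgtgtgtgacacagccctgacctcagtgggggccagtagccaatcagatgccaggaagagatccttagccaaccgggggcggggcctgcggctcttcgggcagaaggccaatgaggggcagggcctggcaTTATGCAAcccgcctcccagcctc
Tef, chr15:81802423-81802672, plus strand: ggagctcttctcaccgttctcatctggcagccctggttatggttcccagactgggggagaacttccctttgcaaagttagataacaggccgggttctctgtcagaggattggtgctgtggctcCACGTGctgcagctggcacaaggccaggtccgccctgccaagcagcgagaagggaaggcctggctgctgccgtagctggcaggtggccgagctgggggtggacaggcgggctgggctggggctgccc
The E-box was also found in 3 of 4 immediate early promoters (Klf4, Klf6 and Dusp1) and the CEBP pattern in 2 of 3 neutrophil promoters (S100a9 and Mmp8). The heat shock element GAANNTTC was in 2 of 3 heat shock promoters (Hspb8 and Bag3). Both of these matches lie after the transcription start, by 2 and 42 bases, and not upstream of it. The element occurs in 7.86% of all promoters and in 6.74% of genes at the level. The cyclic AMP response element TGACGTCA stood in 1 of the promoters searched, that of Dusp1, in 1.79% of all and in 3.33% of genes at the level.

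Small nuclear RNA (snRNA) genes, whose products take part in splicing, were the most uniform class. Of 276 at a level of 6 or more, 254 (92.0%) were lower in BZ in all 3 numbers and 0 were higher, and 106 had zones apart. Their median difference was -0.27 log2, with -0.41, -0.12 and -0.35 in numbers 1, 2 and 3. The genes are not independent, since 263 carry predicted-gene symbols and 84 share all 9 values with another. Counted once per distinct profile, 187 of 206 (90.8%) were lower, and the count was 248 with median centring and 245 with quantile normalization. Gm23714 was at 7.58, 7.29 and 6.99 in BZ and at 8.16, 7.88 and 7.74 in NIZ (-0.64 ± 0.10 log2), and Gm24856 and Gm22057 differed by -0.61 ± 0.06 and -0.60 ± 0.13 log2. The abundant Rn7sk, which restrains transcription elongation, differed by -0.08, -0.03 and -0.12. Rnu11 and Rnu12, of the minor spliceosome, had mixed signs. This class was counted after its values were seen.

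Other RNA classes were less uniform. Of 150 snoRNA genes 51 (34.0%) were lower and 2 higher, and of 1678 pseudogenes 538 (32.1%) were lower and 230 higher. The 96 miRNA genes, measured through their precursors, had 13 in each direction, with mean differences from -0.39 (Mir1192) to 0.29 (Mir762). Of 16 variable segments of immunoglobulin and T cell receptor genes at the level 8 were higher and 0 lower, beside 13.9% and 21.2% of all genes. Their median was 0.14 log2, with 0.01, 0.11 and 0.31 in numbers 1, 2 and 3. Of 199 measured immunoglobulin variable segments, only 10 reached the level. A segment may reach it only through the arrays where it is high, so the count supports nothing about these segments. Of 37 cytosolic ribosomal proteins 17 were higher and 3 lower at a median of 0.05 log2. Rpsa had the largest mean difference among them, 0.23 log2, and Rpl3l, the form particular to muscle, the lowest (-0.22). Among long noncoding RNAs, Neat1 was lower by -0.28 ± 0.04 and Norad by -0.08 ± 0.04 log2, and Malat1 was higher by 0.04 ± 0.02.

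**Figure D5:**
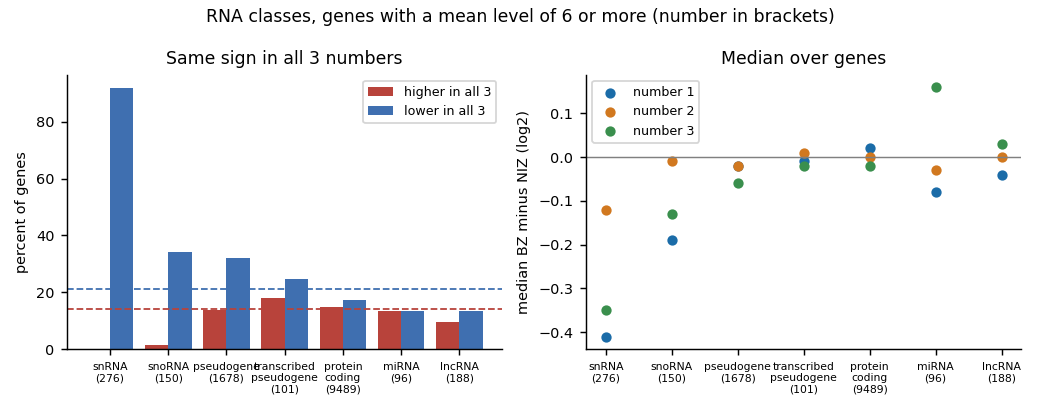
For RNA classes with 90 or more genes at a mean level of 6 or more, the left panel shows the percent of genes higher (red) or lower (blue) in BZ in all 3 numbers, with dashed lines at the share of all genes, and the right panel the median BZ minus NIZ (log2) of each number. The snRNA class reaches 92.0% lower, and its 3 medians of -0.41, -0.12 and -0.35 are the lowest of the classes shown.

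Of 16 genes listed as p53 targets or apoptosis genes, 6 were lower and 3 higher in all 3 numbers, beside 21.2% and 13.9% of all genes. Cdkn1a, a brake on the cell cycle, was at 10.73, 10.63 and 8.58 in BZ and at 11.06, 10.71 and 9.14 in NIZ, so number 3 was low in both zones and the zones overlapped. Trp53inp1 differed by -0.10, -0.11 and -0.36 and Bcl2l1, which protects cells from death, by -0.50, -0.43 and -0.09, while Bak1, which opens the mitochondrial membrane, was higher by 0.55, 0.04 and 0.17. Bclaf1, the transcription factor studied by the authors, had levels of 7.55, 7.33 and 7.05 in BZ and of 7.47, 7.63 and 7.47 in NIZ. Its differences of 0.08, -0.30 and -0.42 had mixed signs, so it was not among the 4278.

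The remaining lists had fewer genes of the same sign or few measured genes. Of 17 genes of TGF-beta signalling 3 were higher and 2 lower, of 12 mural cell genes 1 and 1, of 9 endothelial activation genes 2 and 1, of 8 atrial genes 2 and 1 and of 7 mesothelial genes 0 and 1. Of 6 known long noncoding RNAs 1 was higher and 2 lower, of 5 renin-angiotensin and adrenergic genes 2 and 1, of 4 platelet genes 1 and 0, and the 1 erythrocyte gene, Alas2, had mixed signs. Just inside the level limit were Cpeb1 (mean difference -0.07 log2), Palm2 (0.13) and Mterf4 (0.19), and just outside the limit were Hdac9 (0.31), Mfsd4b4 (0.19) and Pawr (-0.16). A further cluster was available at a level of 6 or more for 39 of the 4278 genes, and of these 41 clusters 31 had the same sign in all 3 numbers as the gene and 0 the opposite sign.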

How the data were processed

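The authors deposited log2 values made by RMA in Affymetrix Expression Console 1.0, a method of background correction, quantile normalization and a summary of the probes per transcript cluster. The labels also name Transcriptome Analysis Console 3.0. The table of 65534 clusters and 9 arrays (medians 4.19 to 4.29) was used as deposited. Of the clusters, 30414 have 1 symbol, 2146 several and 32974 none. Differences were computed in Python 3.11.15 and zones fitted with limma 3.58.1 in R 4.3.3 on all 9 arrays, with no block and Benjamini-Hochberg adjustment over all clusters, after both steps were tested on simulated data. Same-numbered BZ and NIZ arrays deviated together (correlations 0.618, 0.204 and 0.516 over clusters, all above 0.1), so the numbers were taken as pairs. This pairing comes from the data, since no label ties a number to a mouse. It was not checked for the IZ arrays, which the blocked fit on all 9 arrays also matches by number. The number of arrays limits the precision.

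The genes, the 38 lists (719 entries) and the tests were chosen with earlier results of these data known. Named were the 15 largest and 15 smallest mean differences, the 10 most even in each direction, up to 4 members and up to 2 others of a list, Bclaf1 and 3 genes on each side of the level limit. Genes and classes said to be chosen after their values were seen, C1q and the ribosomal proteins, fall outside that rule, as do further list members given with their differences. A difference in log2 level is called higher or lower with no test implied. RefSeq tables gave gene classes, chromosomes and promoters, and 19 of 22 genes searched had a promoter. Alternatives were the replicate block, other scalings, filters and levels, other tests, and leaving out each array and number.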

Additional observations from a re-analysis of the deposited data

How the results depend on the processing

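limma called 0 clusters in BZ against NIZ under every alternative run (replicate block with all 9 arrays or with the 6 BZ and NIZ arrays, only these 6 arrays without it, scaling, filters, priors, array weights and the methods' test), except when samples were left out. The methods' test had 574 clusters at an unadjusted p under 0.05. Leaving out 1 sample or 1 number gave from 0 to 173 calls, with 173 without NIZ replicate 3 and 65 without number 3, and 0 for every other omission. With the replicate block, leaving out a number gave 0 calls each time, an alternative chosen after seeing the data. The 173 calls without NIZ replicate 3 were not fitted with the replicate block. In the fits run with the block no cluster was called.

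The count of genes higher in BZ in all 3 numbers, 1698, became 1065 at a level of 7 or more, 3314 with no level, 2809 with quantile normalization and 399 when each difference had to exceed 0.1 log2. That of genes lower in BZ in all 3 numbers, 2580, became 4153 with no level, 753 at 0.1 log2 and 1635 among protein-coding genes, which were counted after seeing the data. Requiring the sign in only 2 numbers gave from 2389 to 3951 higher and from 3567 to 3671 lower genes. Median centring kept 972 of the 1698 and 2110 of the 2580 genes, and quantile normalization kept 1610 and 1991. The SD of the differences of number 2 moved from 0.19 to 0.227 with no level. Pearson's r moved from 0.60 to 0.64 (numbers 1 and 2), 0.22 to 0.10 (1 and 3) and 0.13 to 0.06 (2 and 3), and Spearman's rho for numbers 1 and 2 from 0.54 to 0.34. Of 222 list medians under 6 alternatives 211 stayed within the SD over the numbers and 10 moved further, and that of heat shock genes, with the same sign in each number, turned from -0.02 to 0.00 with quantile normalization. Among lists whose numbers disagree, the median changed sign for border zone stress (-0.05 to 0.01, quantile normalization), immediate early (-0.12 to 0.02) and extracellular matrix genes (0.03 to -0.04) without number 1, atrial (-0.14 to 0.10) and hypoxia genes (0.02 to -0.07) without number 2, and mesothelial (-0.02 to 0.26) and erythrocyte genes (-0.03 to 0.13, 1 gene) without number 3. Of 960 means of named genes 954 stayed and 6 moved, and 0 turned. For the settings that left out a number this outcome was fixed in advance. Dropping 1 of 3 differences cannot shift their mean by more than their SD, and genes of 1 sign in all 3 numbers cannot turn. Only the other settings could move a mean, and there quantile normalization moved 5 and the mean of all clusters of a symbol 1. The cause of these changes was not tested. With 3 arrays against 3, an exact two-sided permutation test cannot go below 0.1. For the 3 differences within numbers, a two-sided test by sign changes cannot go below 0.25.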
